A study of Homo sapiens with 8 samples.

Results

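The endothelial cell line EaHy was compared with the prostate cancer cell line PC3M, 2 libraries against 2, chosen by the line named in the labels, in 4 of the 8 RNA sequencing libraries of a study of human cell lines. The study sought receptors for epoxyeicosatrienoic acids (EETs), lipid mediators made from arachidonic acid, among the G protein-coupled receptors (GPCRs) of 3 lines that bind EETs and 1 that does not. EaHy and PC3M both belong to the binding class, so that class does not separate them. The other binding line was U937, and the non-binding line was HEK293. EaHy was grown in RPMI with penicillin and streptomycin and heat-inactivated serum. The PC3M cells, named PC3M-LN4 in the growth protocol, were grown in the same kind of medium with L-glutamine added. HEK293 was grown in DMEM, and its libraries and those of U937 entered the filter on low values, the shared estimate of the spread and, where stated, a gene's level in other lines. Neither line was treated. Cells of each line were collected in duplicate, so the tests measure the spread between these duplicate libraries, and each line stands for itself alone as a model of its tissue. RNA was depleted of ribosomal RNA and sequenced in paired reads. Expression was given as FPKM, fragments per transcript length and per mapped fragments, for 23615 gene symbols.

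EaHy is in common usage a fusion of umbilical vein endothelial cells with the lung carcinoma line A549. Endothelial cells line vessels, are held together by VE-cadherin, respond to angiopoietins, VEGF and sphingosine-1-phosphate, and make nitric oxide through NOS3. EETs are formed by cytochrome P450 epoxygenases, are hydrolysed by epoxide hydrolases, and relax vessels as endothelium-derived mediators. PC-3, the parent of PC3M, is a prostate cancer line from a bone metastasis that grows without androgen and is known to lack alpha-catenin. The comparison thus sets an endothelial hybrid against a carcinoma line, both adherent.

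Before any contrast, the 4 libraries differed in their RNA composition. Genes of small RNAs took 35.4% of the summed FPKM in EaHy replicate 1, but 83.6% in EaHy replicate 2, 65.2% in PC3M replicate 1 and 81.8% in PC3M replicate 2. RMRP, the RNA component of RNase MRP, was listed at 490 FPKM in EaHy replicate 1 and between 275616 and 506736 FPKM in the other 3 libraries. The median of 65 replication histone genes was 1.94 on the log2(FPKM + 0.5) scale in EaHy replicate 1 and 7.99, 9.71 and 8.47 in EaHy replicate 2 and the PC3M libraries. EaHy replicate 2 and both PC3M libraries thus share a profile that EaHy replicate 1 lacks. Over the 16295 genes kept by the filter, EaHy replicate 2 correlated at 0.83 with PC3M replicate 1 and 0.74 with PC3M replicate 2 (Pearson). Its correlation with EaHy replicate 1 was 0.78, and the PC3M libraries correlated at 0.84. The part of the shared profile in the results was not tested. The counts over all genes and the medians in the plot of list medians are also given without EaHy replicate 1. List counts that moved by more than 1.5 times are mostly given without it too, as counts or as calls lost. Leaving it out compares the lines within that profile. Genes at or above 0.5 FPKM numbered 14403 and 11474 in EaHy and 11680 and 9940 in PC3M. The read depth in counts is unknown.

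All tests were limma fits on log2(FPKM + 0.5) with Benjamini-Hochberg adjustment over 16295 tested genes, and a gene was called at an adjusted p under 0.05. In EaHy 1023 genes were higher than in PC3M (6.28% of those tested) and 234 were lower (1.44%). These shares are the background for the list counts below. The median difference of all tested genes was 0.59 (log2, EaHy minus PC3M). Both EaHy libraries lay above both PC3M libraries for 34% of the tested genes and below both for 11.3%, with 8915 genes overlapping. Of the genes called higher, 582 were under 0.5 FPKM in both PC3M libraries. Of the genes called lower, 163 were under 0.5 FPKM in both EaHy libraries. Large parts of both sets are thus genes near absence in one of the lines. EaHy had the highest mean of the 4 lines for 800 of the 1023 higher genes, and PC3M for 174 of the 234 lower genes.

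Without EaHy replicate 1, the counts were 547 higher (3.36%) and 128 lower (0.786%), and all 1023 higher and 234 lower genes kept their direction. Of the called genes, 351 higher and 101 lower ones were called again in each of the 8 fits that left out 1 library. Below, such a call is named a stable call. The name covers these 8 fits only, all of which drew on U937 and HEK293 libraries for the spread. A limma fit to the 4 EaHy and PC3M libraries alone kept the direction of all called genes. It called 0 of the 1023 higher and 0 of the 234 lower genes, stable ones included. The count of higher genes moved by more than 1.5 times without other libraries too, to 1692 without EaHy replicate 2, 2063 without PC3M replicate 1, 391 without PC3M replicate 2, 681 without U937 replicate 1, and 556 and 557 without HEK293 replicates 1 and 2. The count of lower genes moved that far without HEK293 replicates 1 and 2, to 141 and 142. Of the called genes, 81.4% were higher in EaHy. This split depended on the scaling, with 55.6% higher under upper-quartile scaling, 51.1% after quantile normalization and 57.7% under median-ratio scaling. These scalings moved the median of all genes to 0.11, −0.02 and 0.09. Lower calls over all 16295 tested genes rose from 234 to 1089, 1157 and 1049 in that order. Lower counts of lists under these scalings are to be read beside those counts. Lists described below with higher calls and no lower ones gained at most 4 lower calls under the other scalings. Beside most list counts, the libraries are named whose omission moved a count by more than 1.5 times, with the count or the calls lost. Not every such move is listed. The endothelial transcription factor, hemostasis, YAP and TEAD target and interferon-stimulated lists, described with none lower, had lower calls without PC3M replicate 2. The interferon-stimulated list also had them without U937 replicate 2.

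**Figure D1:**
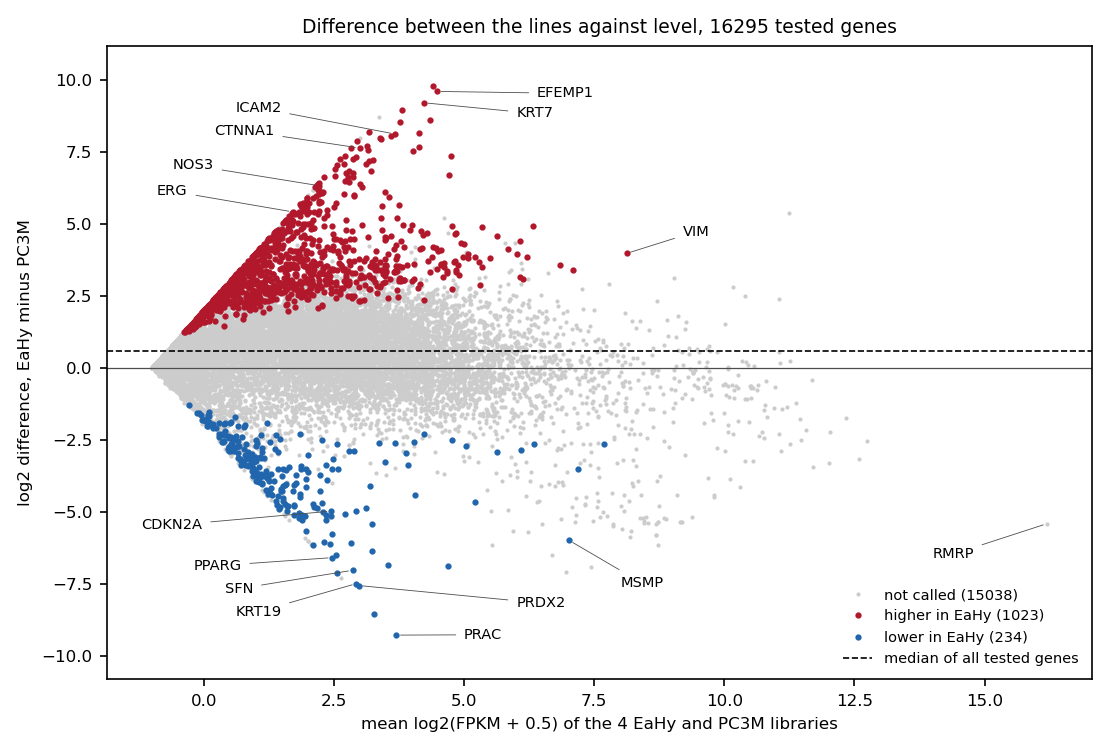
Log2 difference between EaHy and PC3M (y axis) against the mean log2(FPKM + 0.5) of the 4 libraries (x axis), a point per tested gene, with red and blue points called higher and lower in EaHy and grey points not called. Many called genes lie along the edges of the triangle, where one line is near 0, and the dashed line marks the median of all genes at 0.59.

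EFEMP1, a fibulin of the extracellular matrix, was listed at 463 and 839 FPKM in EaHy and at 0.783 and 0 FPKM in PC3M, a difference of 9.61 on the log2(FPKM + 0.5) scale (SE 0.73, adjusted p = 0.00078). The simple-epithelium keratin KRT7 had 644 and 322 FPKM in EaHy and 0.4 and 0.157 in PC3M (9.21, SE 0.85). None of these values overlapped between the lines, and both calls were stable. Other large differences were those of ECSCR, THBS1, IGFBP7, ANKRD1, PRSS23, ICAM2, PTRF, EGFL7 and SRGN, from 8.96 for ECSCR to 7.96 for SRGN. Among them ECSCR, ICAM2 and EGFL7 are endothelial proteins, and PTRF is the coat protein cavin of caveolae.

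In the other direction PRAC, a small nuclear protein of prostate and distal colon, was listed at 289 and 359 FPKM in PC3M and at 0.0444 and 0 FPKM in EaHy (−9.27, SE 0.61, adjusted p = 0.00078). PRDX2, a peroxide-reducing peroxiredoxin, had 0.156 and 0 FPKM in EaHy and 234 and 48.7 in PC3M (−7.55, SE 0.84). PRDX2 was also at 149 and 357 FPKM in HEK293 and at 0.336 and 0.274 in U937, so its absence was not particular to EaHy. SFN, the epithelial 14-3-3 protein sigma, had 0.212 and 0.0676 FPKM in EaHy and 86.6 and 77.8 in PC3M (−7.02, SE 0.50). CRABP2, which carries retinoic acid to the nucleus, had 1.63 and 2.12 FPKM against 233 and 332 (−6.88, SE 0.59). The protease inhibitor SLPI, the phosphoglucomutase relative PGM5, the receptor partner RAMP1, and TMEM9 and FAM84B had differences from −6.84 for TMEM9 to −6.08 for FAM84B. The 9 calls in this paragraph up to here were stable. MSMP, a secreted protein of prostate lines chosen here after its values were seen, had the highest mean FPKM in PC3M of the 234 genes called lower in EaHy, at 1490 and 715 FPKM in PC3M and 14.3 and 17.5 in EaHy (−5.98, SE 0.67, adjusted p = 0.0017).

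The labelled endothelial identity of EaHy was checked on 15 defining markers, of which 14 were tested and 11 were higher in EaHy, all 11 with stable calls. Their median difference was 5.09, against 0.59 for all tested genes, and 4.93 without EaHy replicate 1. ICAM2, an adhesion molecule of endothelial junctions, had 201 and 223 FPKM in EaHy and 0.241 and 0.28 in PC3M (8.13, SE 0.59, adjusted p = 0.00078). EGFL7, a secreted protein of growing vessels, had 114 and 243 FPKM against 0.273 and 0.0588 (7.99, SE 0.72). CDH5, or VE-cadherin, had 79.8 and 116 FPKM against 0.172 and 0.0332 (7.33, SE 0.48). In all 3 genes both EaHy libraries lay far above both PC3M libraries.

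The angiopoietin receptor TEK had 21.2 and 42.3 FPKM in EaHy and 0.0822 and 0.331 in PC3M (5.45, SE 0.49), and its partner receptor TIE1 47.2 and 101 against 0.0792 and 0.202 (6.77, SE 0.55). ERG, the ETS factor that keeps endothelial identity, had 26.8 and 16.3 FPKM in EaHy and 0 and 0.00119 in PC3M (5.42, SE 0.47). ERG, which many prostate cancers activate by fusion, was thus at or near 0 in PC3M. ESAM, ROBO4, FLT1, SOX18 and PECAM1 were higher too, with differences from 5.79 for ESAM to 4.07 for PECAM1. The PECAM1 call was lost after quantile normalization (limma, adjusted p = 0.059) and under median-ratio scaling (0.054), which left 10 of the 11 markers called in each case. The blood-clotting protein VWF was at 0.853 and 13.4 FPKM in EaHy and at 0.00867 and 0.00454 in PC3M, and was not called (3.10, adjusted p = 0.081), with the EaHy libraries far apart. KDR, the main VEGF receptor of endothelium, overlapped between the lines at 0.262 and 1.28 FPKM against 1.29 and 0.393 (−0.12, SE 0.54); the sign turned without EaHy replicate 1 (0.50) or PC3M replicate 1 (0.38). EMCN was listed at 0.766 and 0.784 FPKM in EaHy and 0 and 0.231 in PC3M and was not called (1.08, adjusted p = 0.14), and CLDN5 was below the filter of 0.5 FPKM in at least 2 of the 8 libraries. EaHy thus carried most of these endothelial transcripts but little KDR and EMCN.

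**Figure D2:**
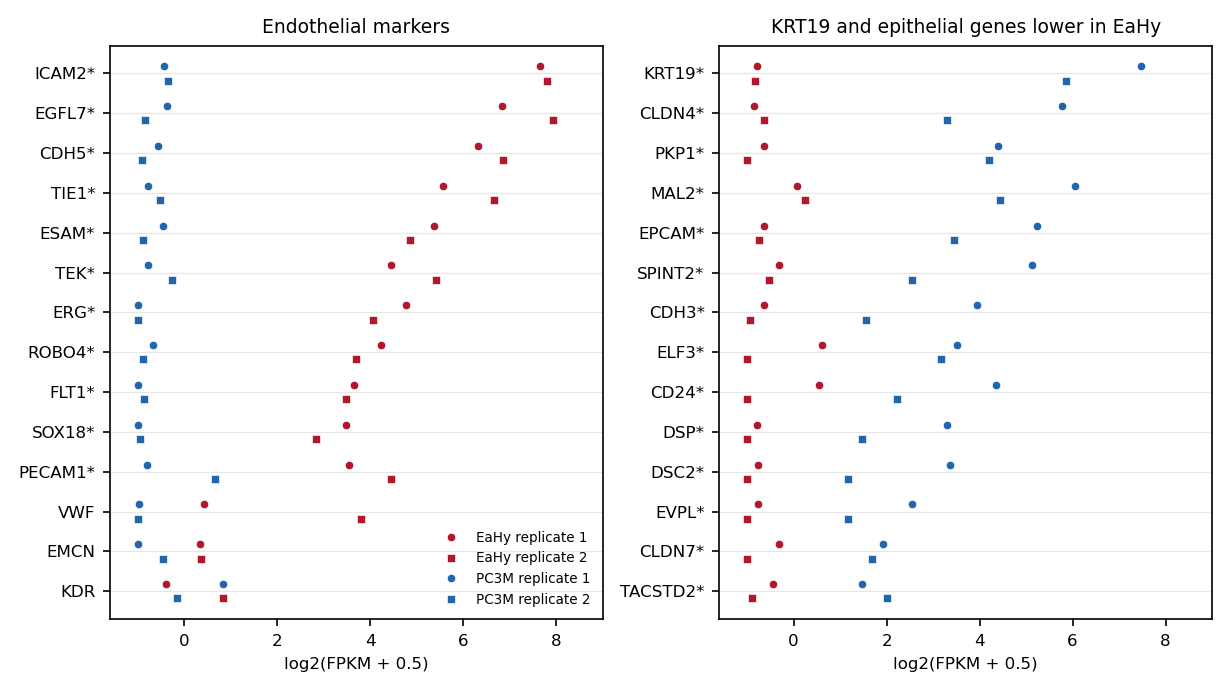
Values of the 14 tested endothelial markers (left) and of KRT19 with the 13 epithelial genes lower in EaHy (right), on a log2(FPKM + 0.5) x axis, with red for EaHy, blue for PC3M, circles for replicate 1, squares for replicate 2, and an asterisk for a call. The colours are apart for every marked gene and mix for KDR.

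Promoter sequence was read for some of the genes that set the lines apart, since ETS factors bind the core GGAA. Of the ETS factors, ERG and FLI1 were higher in EaHy, while SPDEF, described below, was lower. Windows of 300 bases around the start were taken from RefSeq (GRCh38.p14) and searched on both strands for AGGAAG (an ETS core), CAGGTG (an E-box) and TGACTCA (an AP-1 site), matches shown in capitals. Of the 11 called endothelial markers, 6 had windows (11 in all). Of these 11 windows, 7 held AGGAAG or its reverse complement (63.6%), against 33.6% of all 35116 windows. ERG alone gave 4 of the 11 windows, and EGFL7 and TEK gave 2 each. Windows of the same gene are not independent, so the 11 windows stand for 6 genes only. Neither the difference between these shares nor binding by ETS factors was tested. The shares over the windows of all called genes were 38.2% for those higher in EaHy, 35.2% for those lower and 32.7% for tested genes not called. For the 13 epithelial genes lower in EaHy, described below, 7 had windows, and 36.4% of their 11 windows held a match. The TIE1, ROBO4 and NOS3 windows are shown because these genes carry the endothelial difference and each holds an AGGAAG match. TIE1 lies at chr1:43300732-43301031 on the plus strand, ROBO4 at chr11:124897816-124898115 on the minus strand and NOS3 at chr7:150993532-150993831 on the plus strand. No 2 matches overlap in them.
TIE1: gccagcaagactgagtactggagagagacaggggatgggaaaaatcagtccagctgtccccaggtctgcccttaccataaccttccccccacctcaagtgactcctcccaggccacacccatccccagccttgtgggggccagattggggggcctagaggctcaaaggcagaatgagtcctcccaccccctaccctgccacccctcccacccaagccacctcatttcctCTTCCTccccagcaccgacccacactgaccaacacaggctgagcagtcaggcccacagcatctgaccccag
ROBO4: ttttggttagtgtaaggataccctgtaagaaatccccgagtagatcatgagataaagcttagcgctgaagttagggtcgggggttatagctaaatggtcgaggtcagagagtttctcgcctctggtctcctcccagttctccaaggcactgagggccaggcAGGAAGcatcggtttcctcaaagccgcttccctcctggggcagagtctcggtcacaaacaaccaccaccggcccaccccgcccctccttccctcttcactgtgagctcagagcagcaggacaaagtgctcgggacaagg
NOS3: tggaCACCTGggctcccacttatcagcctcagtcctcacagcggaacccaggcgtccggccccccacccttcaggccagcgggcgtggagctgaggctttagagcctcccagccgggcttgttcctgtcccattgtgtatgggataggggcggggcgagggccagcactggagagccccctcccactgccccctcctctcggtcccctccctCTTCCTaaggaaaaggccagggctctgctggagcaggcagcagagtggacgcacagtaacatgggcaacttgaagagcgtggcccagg
A match is a description of these letters only.

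Endothelial transcription factors were higher in 14 of 29 tested cases and lower in none, with a median of 2.85, and 8 of the calls were stable. Without PC3M replicate 2 the higher count was 8. KLF2, the flow-induced factor that activates NOS3, had 62.4 and 16.7 FPKM in EaHy and 0.104 and 0 in PC3M (5.90, SE 0.65, adjusted p = 0.0017). FLI1, an ETS factor, had 19.9 and 15.6 FPKM against 0.0594 and 0.00214 (5.10, SE 0.51). LMO2, a bridging factor of blood and vessel development, had 6.67 and 34.7 FPKM against 0.269 and 0.0787 (4.57, SE 0.80), a call lost without PC3M replicate 2. Of 34 surface and junction genes, 28 were higher and none lower (median 4.41, and 4.51 without EaHy replicate 1), 20 with stable calls. The junctional ECSCR had 257 and 376 FPKM in EaHy and 0.282 and 0 in PC3M (8.96, SE 0.72). CLEC14A, a vessel lectin, had 53.9 and 214 FPKM against 0.207 and 0.284 (7.18, SE 0.68), and the hyaluronan-binding STAB1 had 20 and 36 against 0.0388 and 0.0876 (5.60, SE 0.45). Caveolin CAV1 was present in both lines, at 373 and 517 FPKM in EaHy and 29.4 and 6.47 in PC3M, and was higher in EaHy (4.93, SE 0.81).

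Among 35 angiogenic receptors and ligands 20 were higher and none lower, with a median of 2.76 both with and without EaHy replicate 1, and 14 of the calls were stable. Endothelin EDN1, the vasoconstrictor peptide, had 31.6 and 38.3 FPKM in EaHy and 0.0395 and 0.093 in PC3M (5.96, SE 0.44). Its converting enzyme ECE1 had 139 and 143 FPKM against 7.3 and 6.14 (4.30, SE 0.62). Placental growth factor PGF had 30.9 and 288 FPKM against 0.592 and 2.73 (5.66, SE 1.02), with the EaHy libraries far apart. Of 26 hemostasis genes 7 were higher, none lower (median 1.95), with 12 higher without PC3M replicate 1. They included PLAT, the tissue plasminogen activator, at 117 and 73.2 FPKM against 1.72 and 0.325 (6.11, SE 0.69). Thrombomodulin THBD had 36.1 and 20 FPKM against 0.0196 and 0.0154 (5.73, SE 0.68). The ecto-nucleotidase NT5E, which makes adenosine, had 55.9 and 61.1 FPKM against 0.806 and 0.166 (5.98, SE 0.52).

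Epithelial adhesion and identity genes went the other way, with 13 of 42 tested members lower in EaHy and 4 higher, and a median of −0.84 against 0.59 for all genes. Of the 13, 5 had stable calls. The lower count was 8 without either EaHy library, and 20 to 23 under upper-quartile, median-ratio and quantile scaling. Those scalings called 1049 to 1157 of all 16295 tested genes lower, against 234 in the main fit. CLDN4, a tight junction claudin, had 0.0543 and 0.139 FPKM in EaHy and 54.2 and 9.28 in PC3M (−5.28, SE 0.75, adjusted p = 0.005). EPCAM, the epithelial adhesion molecule, had 0.147 and 0.0993 FPKM against 36.9 and 10.5 (−5.02, SE 0.63). The desmosomal plakophilin PKP1 had 0.142 and 0 FPKM against 20.5 and 17.9 (−5.12, SE 0.40), and MAL2 of apical transport had 0.558 and 0.689 against 66.3 and 21.1 (−5.08, SE 0.60). All 4 were below 1 FPKM in both EaHy libraries, and their calls were stable. The members that were higher in EaHy were JUP, ITGA6, TJP1 and LAMB3, of which JUP or plakoglobin, also a partner of VE-cadherin, had 11.4 and 12.6 FPKM against 0.822 and 0.0912 (3.82, SE 0.61). The JUP call was stable, while those of ITGA6, TJP1 and LAMB3 were lost in 7, 6 and 6 of the 8 fits; all 3 were lost without either U937 or HEK293 library or PC3M replicate 2, ITGA6 also without either EaHy library, TJP1 without EaHy replicate 1 and LAMB3 without EaHy replicate 2.

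Keratins split between the lines. KRT19 had 0.0759 and 0.0593 FPKM in EaHy and 177 and 57.8 in PC3M (−7.49, SE 0.59, adjusted p = 0.00078), whereas KRT7, described above, was near 0 in PC3M. KRT8 had 331 and 199 FPKM against 34.4 and 7.31 (3.96, SE 0.92), and vimentin VIM, the filament of mesenchymal and endothelial cells, had 1280 and 955 against 195 and 24.6 (3.98, SE 0.98). The VIM call was lost in 7 of the 8 fits, all but the one without PC3M replicate 1, and that of KRT8 without either EaHy library, PC3M replicate 2 or either HEK293 library. EaHy therefore held KRT7 and KRT8 together with the endothelial genes, while KRT19 was near absence in it.

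Cadherins split as well. Besides CDH5, CDH13 was higher at 7.64 and 8.29 FPKM against 0.102 and 0.00464 (3.94, SE 0.36). CDH11, the cadherin of osteoblasts and mesenchyme, was lower at 0.202 and 0.0655 FPKM against 56 and 7.65 (−5.09, SE 0.79), and CDH3, or P-cadherin, at 0.139 and 0.0185 against 14.8 and 2.46 (−3.55, SE 0.70). The CDH3 call was lost without EaHy replicate 1. Fibronectin FN1 had 164 and 80.5 FPKM in EaHy and 0.446 and 0.138 in PC3M (7.21, SE 0.63). In the list of epithelial-mesenchymal factors and cadherins 8 of 19 tested members were higher and 2 lower. The higher count was 5 without either U937 or HEK293 library, EaHy replicate 1 or PC3M replicate 2, and the lower count was 1 without EaHy replicate 1.

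The prostate label of PC3M was checked on 23 luminal genes, of which 14 were tested, 3 of them lower in EaHy. HOXB13, the homeobox factor of prostate and distal gut, had 0.692 and 0.133 FPKM in EaHy and 47.5 and 15.6 in PC3M (−5.00, SE 0.68, adjusted p = 0.0042). The pioneer factor FOXA1 had 0.915 and 0.308 FPKM against 25.4 and 16 (−4.27, SE 0.54), and the ETS factor SPDEF 0.0299 and 0 against 14.8 and 3.41 (−3.91, SE 0.59). In these 3 the calls were stable. KLK2, KLK3 and TMPRSS2, targets of androgen signalling, and the prostate membrane antigen FOLH1 did not pass the filter in these libraries. PC3M thus showed these 3 lineage factors, while those 4 prostate genes did not pass the filter. Of 17 genes of lung and of A549, 2 were higher and 2 lower, against 6.28% and 1.44% of all tested genes. FOXA1 was among the lower ones and AKR1B1, described below, among the higher. ALDH1A1 had 1.84 and 2.81 FPKM in EaHy and 0 and 0 in PC3M (2.48, adjusted p = 0.027), a call lost without either EaHy library, either PC3M library or HEK293 replicate 1. The secreted AGR2 was lower in EaHy, at 0.0838 and 0 FPKM against 18.1 and 5.87 (−4.33, SE 0.53), and the surfactant gene SFTPC did not pass the filter. None of 30 targets of NRF2, which A549 is known to activate, was called by limma in either direction; their median was 1.08, and 8 were higher and 1 lower at an unadjusted p under 0.05. Other scalings called 0 to 2 of them higher and 0 to 2 lower, and 2 were higher without PC3M replicate 1.

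HOXB13 was not alone at its place. In RefSeq order PRAC (PRAC1) and HOXB-AS5 (PRAC2) are the next protein-coding genes beside it on chromosome 17, and HOXB-AS5 had 0.0131 and 0 FPKM in EaHy and 45.7 and 27.2 in PC3M (−6.14, SE 0.51). All 3 neighbours were thus lower in EaHy. HEK293 held HOXB13 at 4.8 and 7.95 FPKM, PRAC at 1.69 and 0.403 and HOXB-AS5 at 1.6 and 2.72. Reads of overlapping genes on opposite strands cannot be told apart here, since the library kit is not stated to mark strand. Farther along the cluster HOXB7 was higher in EaHy, at 14.5 and 10.7 FPKM against 0 and 0.0337 (4.65, SE 0.50, adjusted p = 0.0015). Over 36 tested HOX genes 3 were higher and 1, HOXB13, was lower, against 6.28% and 1.44% of all tested genes. The higher count was 1 without EaHy replicate 1 or PC3M replicate 2 and 9 without EaHy replicate 2, and the lower count was 2 without PC3M replicate 2.

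The windows of PRAC1, SFN and CLDN4 are shown because these genes were among the clearest of those lower in EaHy. PRAC1 lies at chr17:48722469-48722768 on the minus strand, SFN at chr1:26862899-26863198 and CLDN4 at chr7:73830746-73831045, both on the plus strand. PRAC1 holds 3 matches to AGGAAG or its reverse complement, SFN 1 match to CAGGTG, and CLDN4 1 to AGGAAG and 1 to TGACTCA, none overlapping. CAGGTG or its reverse complement was in 20.6% of all windows, and in 24.6% and 16.1% of those of genes called lower and higher, against 18.8% for tested genes not called. TGACTCA or its reverse complement was in 4.95% of all windows, 7.38% of those of lower genes, 5.57% of those of higher genes and 3.48% of those of tested genes not called.
PRAC1: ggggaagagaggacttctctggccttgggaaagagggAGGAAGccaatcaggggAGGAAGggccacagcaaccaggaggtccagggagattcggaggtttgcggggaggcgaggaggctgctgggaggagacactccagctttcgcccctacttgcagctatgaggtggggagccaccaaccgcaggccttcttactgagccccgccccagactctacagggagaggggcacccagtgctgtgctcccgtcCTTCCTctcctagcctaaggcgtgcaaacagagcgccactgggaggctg
SFN: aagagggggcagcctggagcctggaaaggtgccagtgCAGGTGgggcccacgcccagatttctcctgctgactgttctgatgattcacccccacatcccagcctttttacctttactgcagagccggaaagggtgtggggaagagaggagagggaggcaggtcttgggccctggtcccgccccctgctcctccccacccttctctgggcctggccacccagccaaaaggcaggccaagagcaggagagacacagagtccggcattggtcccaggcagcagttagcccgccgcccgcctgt
CLDN4: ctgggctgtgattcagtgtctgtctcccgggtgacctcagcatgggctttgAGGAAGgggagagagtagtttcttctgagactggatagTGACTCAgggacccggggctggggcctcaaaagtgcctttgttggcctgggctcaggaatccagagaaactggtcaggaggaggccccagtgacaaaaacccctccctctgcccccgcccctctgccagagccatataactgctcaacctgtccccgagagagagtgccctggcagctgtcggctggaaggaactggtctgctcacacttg

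CTNNA1, or alpha-catenin, which ties cadherins to actin and is known to be lost in PC-3, had 115 and 109 FPKM in EaHy and 0.0631 and 0.0619 in PC3M (7.64, SE 0.58, adjusted p = 0.00078). The U937 libraries held 10.1 and 15.1 FPKM and the HEK293 libraries 45.3 and 57.3, so CTNNA1 was lowest in PC3M, and the call was stable. Among the neighbours of CTNNA1, SIL1, chosen after its values were seen, was also higher in EaHy, at 13.4 and 23.1 FPKM against 1.06 and 0.527 (3.84, SE 0.62). HSPA9, ETF1 and MATR3, which lie beside them, were at 96.4 and 19.6, 29.6 and 6.91, and 40.3 and 9.97 FPKM in PC3M and were not called.

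**Figure D3:**
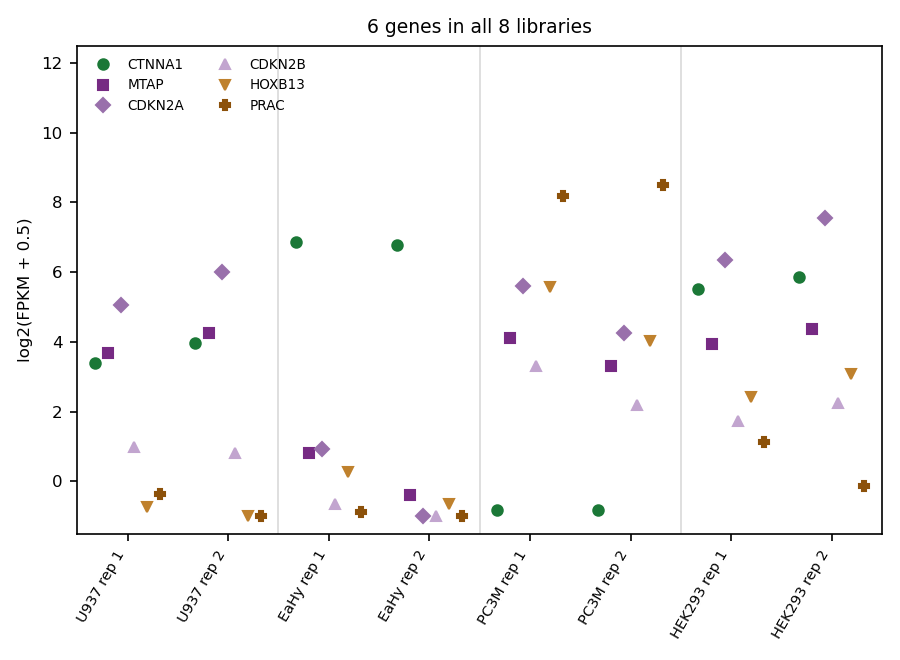
Values of 6 genes on a log2(FPKM + 0.5) y axis in each of the 8 libraries (x axis), a symbol and colour per gene. CTNNA1 is lowest in PC3M, the neighbours MTAP, CDKN2A and CDKN2B are lowest in EaHy, and HOXB13 and PRAC are highest in PC3M.

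Of the CDK inhibitors, CDKN2A, which encodes p16 and ARF, was lower in EaHy, with 1.38 and 0 FPKM in EaHy and 48.3 and 18.4 in PC3M (−4.97, SE 0.89, adjusted p = 0.013). CDKN2B, or p15, had 0.139 and 0 FPKM against 9.38 and 4.02 (−3.56, SE 0.55, adjusted p = 0.0075). Both calls were stable. MTAP, the enzyme of methionine salvage beside CDKN2A on chromosome 9, chosen after its values were seen, had 1.25 and 0.255 FPKM against 16.8 and 9.45 (−3.51, SE 0.67), a call lost without EaHy replicate 2. U937 and HEK293 held CDKN2A at 33 to 186 FPKM and MTAP at 12.3 to 20.1, so EaHy was the lowest of the 4 lines for both. The next tested genes along the chromosome, DMRTA1 and ELAVL2, were not called, with 5.69 and 4.33 and with 2.48 and 3.37 FPKM in EaHy. Of 50 cell cycle genes 3 were lower, CDKN2C being the other, and only CDKN1A was higher, against 1.44% and 6.28% of all tested genes. CDKN1A, the p21 inhibitor of cyclin-dependent kinases, had 42 and 43.3 FPKM against 2.64 and 0.576 (4.55, SE 0.76), a call lost without EaHy replicate 1. The CDKN2C call was lost without either EaHy library, PC3M replicate 2 or either HEK293 library.

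Matrix genes were a large group, with 26 of 62 tested members higher in EaHy and 3 lower (median 2.29, and 2.21 without EaHy replicate 1), 10 of the 26 with stable calls. Of matrix genes, the higher count was 17 without U937 replicate 2, 16 without EaHy replicate 1 or HEK293 replicate 1, 15 without HEK293 replicate 2 and 12 without PC3M replicate 2. The lower count was 1 without EaHy replicate 2 or either U937 or HEK293 library. THBS1, the antiangiogenic thrombospondin, had 358 and 455 FPKM in EaHy and 1.18 and 0.126 in PC3M (8.62, SE 0.70). IGFBP7 had 196 and 354 FPKM against 0.485 and 0 (8.55, SE 0.66), and SPARC, a collagen-binding glycoprotein, 74.6 and 108 against 0.155 and 0.0368 (7.25, SE 0.53). COL6A2, a chain of collagen VI, was lower at 0.653 and 0.42 FPKM against 38.9 and 5.15 (−3.86, SE 0.86), a call lost in 6 of the 8 fits (without either U937, EaHy or HEK293 library). The hyaluronan-binding TNFAIP6 was lower too, with a stable call, at 0.614 and 0 against 9.39 and 3.86 (−3.14, SE 0.54). Matrix proteases and inhibitors were higher in 10 of 32 cases and lower in none, with 6 higher without EaHy replicate 1 or either HEK293 library and 5 without PC3M replicate 2. The interstitial collagenase MMP1 had 209 and 299 FPKM against 1.37 and 0.317 (7.66, SE 0.67), the gelatinase MMP2 118 and 60.2 against 0.0225 and 0.00363 (7.37, SE 0.90), and their inhibitor TIMP3 99.6 and 39 against 0.0425 and 0.00223 (6.91, SE 0.60).

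Integrins and their partners were higher in 10 of 27 cases and lower in none (median 1.81), 3 with stable calls. Their higher count was 6 without either U937 library, 4 without EaHy replicate 1, 5 without PC3M replicate 2 or either HEK293 library, and 16 without PC3M replicate 1. ITGB3, the beta chain of the vitronectin receptor of angiogenic vessels, had 21.2 and 30.3 FPKM in EaHy and 0.0319 and 0.00752 in PC3M (5.64, SE 0.43). The fibronectin receptor chain ITGA5 had 148 and 153 FPKM against 9.12 and 2.01 (4.95, SE 0.80), a call lost without EaHy replicate 1. Targets of YAP and TEAD, the output of the Hippo pathway, were higher in 11 of 30 cases and lower in none, with a median of 2.17 that was 1.27 without EaHy replicate 1. Without PC3M replicate 2 the YAP target count was 6. Among them ANKRD1 had 294 and 79.7 FPKM against 0.0423 and 0.00885 (8.19, SE 0.75), CTGF 265 and 32 against 1.33 and 0.741 (5.94, SE 0.93), and CYR61 183 and 53.2 against 2.22 and 5.01 (4.68, SE 0.75). In these 3 genes EaHy replicate 1 was the higher of its pair, and the CTGF call was lost without PC3M replicate 2.

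In the BMP and TGF-beta pathway 11 of 47 tested genes were higher and 2 lower. For this pathway the higher count was 7 without EaHy replicate 1 or PC3M replicate 2 and 20 without PC3M replicate 1, and no gene was lower without EaHy replicate 1 or either HEK293 library. ACVRL1, the endothelial BMP9 receptor ALK1, had 38.4 and 84 FPKM in EaHy and 0.0954 and 0.0455 in PC3M (6.65, SE 0.53), and its co-receptor endoglin, ENG, had 234 and 22.9 against 0.45 and 0.302 (6.41, SE 1.04). The ENG call was lost without PC3M replicate 2. TGFBI, a matrix protein induced by TGF-beta, had 147 and 37.4 FPKM against 0.115 and 0.00226 (7.07, SE 0.69). The BMP antagonist NOG was lower, at 0.945 and 1.65 FPKM against 36.4 and 10.3 (−3.50, SE 0.69), a call lost without EaHy replicate 1 or either HEK293 library.

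The EET and arachidonate genes bear on the question of the study. Of 36 tested genes of their metabolism, 5 were higher in EaHy and 3 lower, against 6.28% and 1.44% of all tested genes. The list median of 0.41 turned to −0.11 after quantile normalization and −0.03 under median-ratio scaling. The lower count was 6 under upper-quartile and median-ratio scaling, 8 after quantile normalization and 5 when rescaled without small RNA and histone genes. Lower calls over all 16295 tested genes were 1089, 1049, 1157 and 469 in that order, against 234 in the main fit. CYP2J2, the epoxygenase that makes EETs in endothelium and heart, had 0.0447 and 0 FPKM in EaHy and 2.35 and 4.19 in PC3M (−2.81, SE 0.44, adjusted p = 0.0078). The epoxygenases CYP2C8 and CYP2C19 did not pass the filter. EPHX4, of the epoxide hydrolase family, had 0.0735 and 0 FPKM against 4.05 and 5.02 (−3.23, SE 0.46, adjusted p = 0.0051), a stable call. The soluble hydrolase EPHX2, the main enzyme that degrades EETs, overlapped at 0.84 and 0.355 FPKM in EaHy and 1.97 and 0.431 in PC3M (−0.50, SE 0.59, turning to 0.20 without PC3M replicate 1). The microsomal hydrolase EPHX1 overlapped too, at 9.17 and 0.773 FPKM against 1.13 and 0.447 (1.50, SE 0.98). The phospholipase PLA2G4A, which frees arachidonate, was lower in EaHy at 0.194 and 0.8 FPKM against 3.54 and 5.13 (−2.33, SE 0.58, adjusted p = 0.049). The CYP2J2 call was lost without PC3M replicate 2 and that of PLA2G4A in 6 of the 8 fits, all but those without EaHy replicate 2 or PC3M replicate 1. The lower genes thus were an epoxygenase, a hydrolase and a phospholipase.

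On the higher side, AKR1B1, an aldose reductase that also makes prostaglandin F2 alpha, had 97.4 and 153 FPKM in EaHy and 0.188 and 0.111 in PC3M (7.56, SE 0.66, adjusted p = 0.00078). The cyclooxygenase PTGS1 had 15.4 and 6.34 FPKM against 0.0478 and 0.246 (4.03, SE 0.56), while PTGS2 was listed at 0.0405 and 0.0175 FPKM against 0 and 0. LPCAT2, which acylates lysophospholipids, had 17.9 and 19.1 FPKM against 0 and 0.0323 (5.20, SE 0.53). Of the acyl-CoA synthetases, ACSL5 had 7.56 and 4.86 FPKM against 0.214 and 0.156 (3.26, SE 0.55), and ACSL4, which prefers arachidonate, 82.2 and 63.8 against 14.2 and 2.64 (3.42, SE 0.79), a call lost in 7 of the 8 fits, all but the one without PC3M replicate 1. The thromboxane synthase TBXAS1 was at 0.78 and 0.0786 FPKM in EaHy and 13 and 3.06 in PC3M and was not called (−3.01, adjusted p = 0.051).

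Among 23 tested genes through which EETs are known to act, 1 was higher and 1 lower, against 6.28% and 1.44% of all tested genes. The list median of 0.23 turned to −0.15 without EaHy replicate 1 and −0.18 after quantile normalization. The lower count was 2 without PC3M replicate 1, and 2 or 3 under other scalings. NOS3, endothelial nitric oxide synthase, had 68.8 and 24.5 FPKM in EaHy and 0.0181 and 0.0159 in PC3M (6.33, SE 0.61, adjusted p = 0.001). PPARG, a nuclear receptor of fatty acids that EETs can activate, had 0.137 and 0 FPKM in EaHy and 69.7 and 41.2 in PC3M (−6.58, SE 0.59, adjusted p = 0.00078). Both calls were stable. The fatty acid carrier FABP5 was listed at 52.1 and 36.9 FPKM against 253 and 95.7 and was not called (−1.81, adjusted p = 0.23). Its relative FABP4 had 5.57 and 11.4 FPKM against 3.07 and 1.86, not called either. The calcium-activated channel KCNN4, through which vessels hyperpolarize, overlapped at 4.54 and 4.98 FPKM against 4.59 and 0.462.

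**Figure D4:**
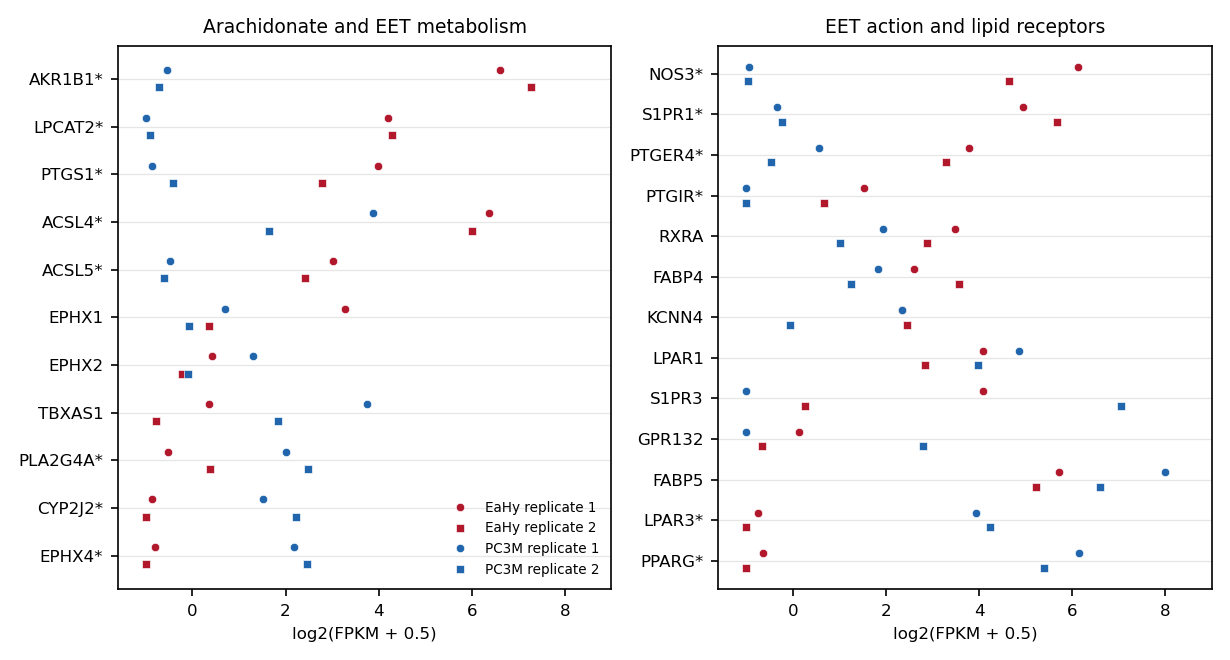
Genes of arachidonate and EET metabolism (left) and of EET action and lipid receptors (right) in the 4 libraries, on a log2(FPKM + 0.5) x axis, EaHy in red, PC3M in blue, circles for replicate 1 and squares for replicate 2, an asterisk for a call. The lines are apart for AKR1B1, NOS3 and PPARG, while for S1PR3 and GPR132 the PC3M libraries lie on both sides of EaHy.

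Of 31 tested receptors for lipids and oxylipins, 3 were higher in EaHy and 1 lower, against 6.28% and 1.44% of all tested genes. Their median of 0.28 turned to −0.06 without EaHy replicate 1 and −0.10 after quantile normalization. The lower count was 2 without PC3M replicate 1, and 1 or 2 under other scalings. The sphingosine-1-phosphate receptor S1PR1, which seals endothelial junctions, had 30.1 and 50.4 FPKM in EaHy and 0.289 and 0.353 in PC3M (5.59, SE 0.48). The prostaglandin E2 receptor PTGER4 had 13.3 and 9.19 FPKM against 0.979 and 0.222 (3.49, SE 0.56), and the prostacyclin receptor PTGIR 2.36 and 1.08 against 0 and 0 (2.09, SE 0.37), a call lost without PC3M replicate 2. LPAR3, a lysophosphatidic acid receptor, was lower in EaHy at 0.0909 and 0 FPKM against 14.7 and 18.2 (−4.95, SE 0.50). LPAR1 was among the more abundant members in both lines, at 16.5 and 6.62 FPKM against 28.6 and 15.2, and was not called. For a pair of receptors the PC3M libraries lay far apart. GPR132, the receptor named in the title of the study, was at 0.59 and 0.131 FPKM in EaHy and at 0 and 6.42 in PC3M (−1.16, adjusted p = 0.53). S1PR3 was at 16.5 and 0.699 FPKM in EaHy and at 0 and 132 in PC3M (−0.85). LPAR1, GPR132 and S1PR3 were chosen after their values were seen.

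Among 123 other GPCRs, 18 were higher in EaHy and 4 lower, 6 and 3 of them with stable calls. Upper-quartile scaling called 1366 of all 16295 tested genes higher and 1089 lower, median-ratio scaling 1431 and 1049, and quantile normalization 1210 and 1157. Rescaling without small RNA and histone genes gave 1901 and 469. Among the other GPCRs too, the excess of higher calls depended on the scaling. Their counts were 18 higher and 14 lower, 17 and 14, and 15 and 17 under the first 3 scalings in that order. Rescaled without small RNA and histone genes, 22 were higher and 7 lower. Of these receptors 11 were higher without EaHy replicate 1, 10 without either U937 or HEK293 library, and 6 without PC3M replicate 2, where 6 were lower. SUCNR1, the succinate receptor, had 14.1 and 12.3 FPKM in EaHy and 0 and 0 in PC3M (4.77, SE 0.49, adjusted p = 0.0012). The Norrin and WNT receptor FZD4 of retinal vessels had 32.3 and 31.5 FPKM against 3.46 and 0.853 (3.81, SE 0.64). On the PC3M side, the orphan GPRC5C had 0.175 and 0 FPKM in EaHy and 22.4 and 8.26 in PC3M (−4.61, SE 0.62), the adhesion receptor GPR110 0.582 and 0 against 18.1 and 7.33 (−4.04, SE 0.63), and the ADP receptor P2RY1 0.12 and 0 against 10.1 and 3.89 (−3.61, SE 0.56).

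Downstream of the receptors, 14 of 64 genes of G proteins, RGS proteins, arrestins and cyclic nucleotide enzymes were higher and 3 lower. Without U937 replicate 2 the higher count was 9, against 8 without EaHy replicate 1 or either HEK293 library and 7 without PC3M replicate 2, and the lower count was 1 without EaHy replicate 1. The gamma subunits GNGT2 and GNG11 had 28.8 and 10.2 FPKM against 0 and 0 (5.14, SE 0.69) and 74.3 and 112 against 5.79 and 1.72 (4.62, SE 0.67). RGS proteins, which speed GTP hydrolysis on alpha subunits, went both ways. RGS4 had 141 and 61.4 FPKM in EaHy and 1.93 and 4.37 in PC3M (4.77, SE 0.65), and RGS5, known from vascular mural cells, 65.3 and 44 against 1.32 and 2.63 (4.51, SE 0.57). RGS2 was lower at 3.13 and 5.77 FPKM against 36 and 64.3 (−3.35, SE 0.62), and RGS17 at 0.128 and 0.0595 against 8.63 and 5.86 (−3.68, SE 0.58). The RGS2 call was lost without EaHy replicate 1.

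Cytokine genes were called in both directions, 7 of 34 higher and 4 lower in EaHy, 1 and 2 with stable calls. The higher count was 1 without EaHy replicate 1 or PC3M replicate 2 and 3 without either U937 or HEK293 library, and the lower count was 7 or 8 under upper-quartile, median-ratio and quantile scaling. The monocyte chemokine CCL2 had 65.3 and 36.8 FPKM in EaHy and 0 and 0 in PC3M (6.63, SE 1.10, adjusted p = 0.0097), a call lost without EaHy replicate 1 or PC3M replicate 2. TNFSF15, an endothelial TNF-family ligand, had 10.4 and 40.2 FPKM against 0.0725 and 0.274 (4.99, SE 0.65). The neutrophil chemokines CXCL1 and CXCL6 were lower, at 0.756 and 0.0778 against 27.8 and 5.95 (−3.99, SE 0.71) and at 0.0489 and 0 against 13.7 and 3 (−3.75, SE 0.63), and so was IL1B at 0.209 and 0.0581 against 10.4 and 2.9 (−3.27, SE 0.63). The IL1B call was lost without EaHy replicate 1. Interferon-stimulated genes were higher in 11 of 46 cases and lower in none (median 1.22, 5 stable calls). Without U937 replicate 1 the interferon count was 7, and without PC3M replicate 2 or either HEK293 library it was 5. IFI27 had 35.1 and 154 FPKM against 0.337 and 0 (6.84, SE 0.75), and the antiviral TRIM22 17.5 and 25.5 against 0.026 and 0.00204 (5.40, SE 0.48). CD40, the TNF-family receptor, had 15.4 and 43.5 FPKM against 0 and 0.0869 (5.61, SE 0.59).

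Markers of other cell types were measured for the same libraries. Of 18 tested blood genes, 4 were higher in EaHy, all with stable calls, namely SRGN, HCLS1, CD53 and LAPTM5. The granule proteoglycan SRGN had 232 and 120 FPKM in EaHy and 0.214 and 0.13 in PC3M (7.96, SE 0.89), and the tetraspanin CD53 21.5 and 31.5 against 0 and 0.258 (5.43, SE 0.72). HCLS1 and LAPTM5 had 59.7 and 63.8 FPKM against 0.327 and 0.0642 and 33.5 and 12.6 against 0 and 0. The defining leukocyte genes PTPRC and SPI1 were listed at 0.818 and 0 and at 2.74 and 0 FPKM in EaHy, and at 0 and 0.0697 and at 0 and 0.12 in PC3M. The 18 tested blood genes summed to 374 and 238 FPKM in EaHy and 4.34 and 5.95 in PC3M. Of 6 tested fibroblast genes 3 were higher, FAP, ACTA2 and THY1, all lost without PC3M replicate 2, FAP also without EaHy replicate 1 and ACTA2 without U937 replicate 2 or either HEK293 library. Among 11 embryonic kidney line genes LIN28B was higher, at 4.22 and 2.93 FPKM against 0.0141 and 0 (2.99, SE 0.47), and CKB and NEFL were lower, the CKB call lost in 6 of the 8 fits, all but those without a U937 library. The part of other cells in the results was not tested.

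Hypoxia and glycolysis genes were called in 7 of 43 cases, 3 higher and 4 lower, of which SLC2A3 and CA9 alone had stable calls. Higher calls numbered 8 without PC3M replicate 1 and 1 without EaHy replicate 1, PC3M replicate 2 or either U937 or HEK293 library. The lower count was 2 without either EaHy library and 1 without either HEK293 library. The carbonic anhydrase CA9, a HIF target, had 0.174 and 0 FPKM in EaHy and 33.6 and 13.1 in PC3M (−5.21, SE 0.52, adjusted p = 0.0011), and the glucose transporter SLC2A3 had 10.6 and 19 against 0.02 and 0.119 (4.69, SE 0.62). Of 38 genes of cholesterol and lipid synthesis, the sterol exporter ABCG1 was the only higher one, a call lost without PC3M replicate 2, while 5 were higher without PC3M replicate 1. Lysosomal genes were higher in 7 of 36 cases (median 1.87), of which the hexosaminidase HEXA alone had a stable call, at 10.3 and 16 FPKM against 0.0335 and 0 (4.69, SE 0.62). The lysosomal count was 3 without U937 replicate 1, 1 without EaHy replicate 1 or PC3M replicate 2, 2 without either HEK293 library and 16 without PC3M replicate 1. None of 35 respiratory chain, 75 ribosomal protein and 31 serine synthesis and ATF4 genes was called by limma. At an unadjusted p under 0.05 the counts were 0 higher and 4 lower, 0 higher and 5 lower, and 2 higher and 1 lower in that order. The zeros depended on the scaling. Of the respiratory chain genes 13 were lower in EaHy under upper-quartile scaling, 10 under median-ratio scaling, and 4 after quantile normalization or rescaling without small RNA and histone genes. Lower calls over all 16295 tested genes were 1089, 1049, 1157 and 469 in that order, against 234 in the main fit. Ribosomal protein genes had 4, 3, 0 and 2 lower calls in the same order of scalings, and serine synthesis and ATF4 genes 1, 1, 1 and 0. Without PC3M replicate 1, 1 respiratory chain gene was lower and 2 serine synthesis and ATF4 genes were higher, and without EaHy replicate 2 the latter count was 1. Of 31 housekeeping genes only GUSB, a lysosomal enzyme, was called, lost in all fits but the one without PC3M replicate 1. Of 65 histone genes none was called by limma (1 higher and 39 lower at an unadjusted p under 0.05). Yet 49 of the 65 lay lower in both EaHy libraries than in both PC3M libraries, against 11.3% of all tested genes. Without EaHy replicate 1, 6 histone genes were higher and 0 lower, and without EaHy replicate 2, 0 were higher and 47 lower.

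**Figure D5:**
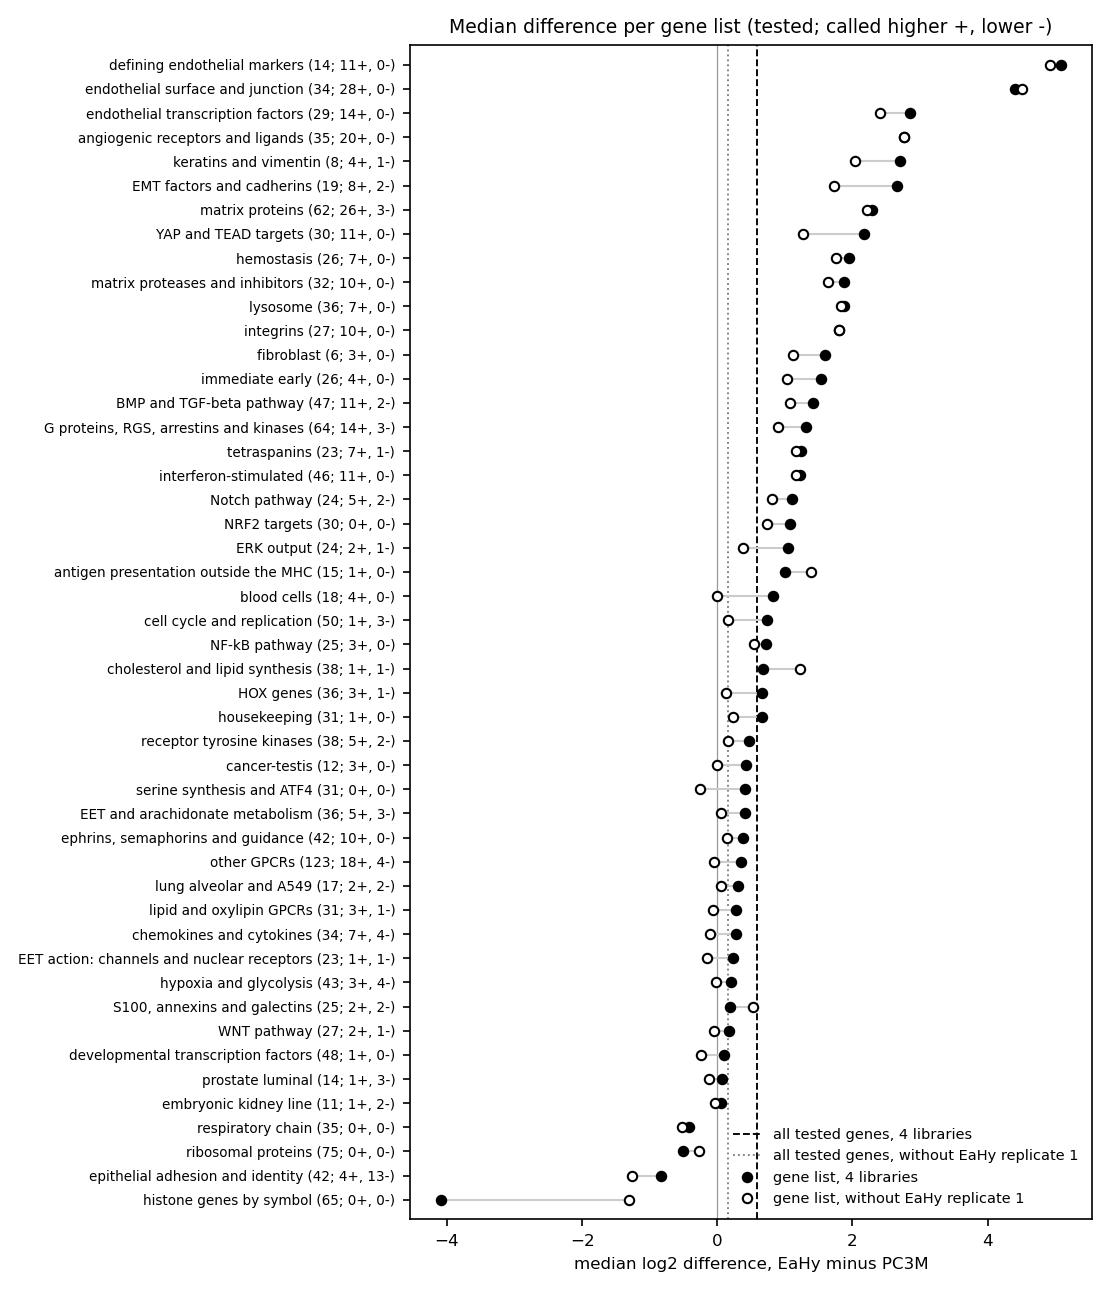
Median log2 difference (x axis, EaHy minus PC3M) of gene lists with at least 5 tested members, filled for the 4 libraries and open without EaHy replicate 1, with tested and called numbers beside each name. Endothelial lists lie far above the median of all genes (dashed line), the epithelial list lies below 0, and the histone median moves from −4.09 to −1.31 without EaHy replicate 1.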

How the data were processed

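RNA of 8 libraries, 2 for each of 4 cell lines, was measured by sequencing after ribosomal RNA depletion. The deposited values were FPKM, made by the authors with cutadapt, TopHat2 2.0.11 and Cufflinks 2.2.1 on hg19, per the submitters' processing notes; no further scaling between libraries is recorded. The kit is not stated to mark strand. Symbols at or above 0.5 FPKM in at least 2 libraries were kept, 16295 of 23615. Values were tested as log2(FPKM + 0.5) in 1 fit over all 8 libraries with limma 3.58.1 (R 4.3.3, prior spread following the mean level, Benjamini-Hochberg adjustment), which left 4 residual degrees of freedom. An exact test of 2 against 2 libraries cannot go below p = 0.333. A fold on this scale understates the change of low genes. On simulated data 0%, 4%, 50% and 76% of 50 genes changed by 1, 2, 4 and 6 on the log2 scale were called. Groups came from the labels.

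Genes were named by rule: the 12 largest called differences each way outside small RNA, histone and unnamed loci, up to 4 called members a list each way, all defining markers, EET genes and genes lost in PC-3. Others (CAV1, CDH13, CLEC14A, DMRTA1, ECE1, ELAVL2, ETF1, GPR132, HSPA9, LPAR1, MATR3, MSMP, MTAP, PGF, PTPRC, RMRP, S1PR3, SIL1, SPI1, STAB1 and THBD) were chosen after their values were seen. The comparison and its gene lists were chosen with earlier results of these data known. The lists overlap; 1890 of 1891 list genes had a symbol in the table. Some genes and lists the rule covers are not reported here. Alternatives covered pseudocount, filter, scaling, test and each library left out (21 in all), and 1 with crossed replicate numbers was added after the data were seen.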

Additional observations from a re-analysis of the deposited data

How the results depend on the processing

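All 1023 higher and 234 lower genes kept their direction in every alternative in which they were tested (the filter at 1 FPKM tested 973 and 230 of them), and 861 and 231 of them were called under all 4 other scalings. The count of lower genes rose to 1089 under upper-quartile scaling, 1157 after quantile normalization and 1049 under median-ratio scaling, while the higher genes numbered 1366, 1210 and 1431. Rescaling without small RNA and histone genes gave 1901 higher and 469 lower. A limma fit to the 4 EaHy and PC3M libraries alone called 0 higher and 0 lower genes, with 1648 and 452 at an unadjusted p under 0.05 and a smallest adjusted p of 0.0648. Testing for a change above 2-fold called 382 and 97. Leaving out 1 library gave 391 to 2063 higher and 128 to 278 lower genes. The causes were not tested. The replicate block gave 848 higher and 208 lower genes; same-numbered libraries correlated in their deviations from −0.151 (U937 and PC3M) to 0.326 (U937 and HEK293), with −0.107 between EaHy and PC3M, and not every pair was over 0.1, so the numbers are not taken as pairs. With the numbers of PC3M crossed, an alternative added after seeing the data, the block gave 910 and 222. For genes not called, leaving out 1 library moved the log2 difference from −1.21 to 0.20 (EPHX2), −3.06 to 0.73 (GPR132), −0.73 to 0.50 (KDR), −0.094 to 1.30 (PTPRC), −0.16 to 2.54 (SPI1) and −4.88 to 3.18 (S1PR3). S1PR3 was also at 0.0032 with a pseudocount of 0.1. Without counts, depth sets no stated limit on the low genes.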

Other observations

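Guidance and adhesion genes outside the groups above were also called between the lines. Of 42 tested ephrin, semaphorin and guidance genes, 10 were higher in EaHy and none lower, 4 with stable calls. The guidance count was 6 without either U937 library, 5 without EaHy replicate 1 or either HEK293 library and 4 without PC3M replicate 2. SEMA3F, a semaphorin that repels vessels, had 20.7 and 14 FPKM in EaHy and 0.294 and 0.0473 in PC3M (limma, 4.73, SE 0.56, adjusted p = 0.0022). The semaphorin co-receptor PLXNA2 had 45.1 and 15.8 FPKM against 0.546 and 0.252 (4.94, SE 0.61). Of 24 Notch pathway genes 5 were higher and 2 lower, 2 and 0 with stable calls. The higher count was 3 without EaHy replicate 1 or either U937 or HEK293 library and 2 without PC3M replicate 2, and the lower count was 0 in 7 of the 8 fits that left out 1 library, all but the one without PC3M replicate 2. Under upper-quartile and median-ratio scaling 4 were higher and 5 lower. The Notch glycosyltransferase MFNG had 16.1 and 19.4 FPKM against 0.164 and 0 (4.98, SE 0.67), a stable call. The WNT antagonist relative DKK3 had 18.6 and 26.6 FPKM against 0.0946 and 0.0233 (5.35, SE 0.48).

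Of 23 tetraspanins 7 were higher and 1 lower, 2 of the 7 with stable calls. The higher count was 4 without either HEK293 library and 2 without PC3M replicate 2. TM4SF18 had 13.9 and 46.7 FPKM in EaHy and 0.0431 and 0.172 in PC3M (5.43, SE 0.58), and TSPAN13 had 0.325 and 0 against 11.8 and 4.98 (−3.68, SE 0.66). The receptor tyrosine kinase MST1R, which binds macrophage-stimulating protein, was lower at 0.24 and 0.051 FPKM against 11.1 and 3.54 (−3.42, SE 0.53), and the annexin ANXA10 at 0.0732 and 0.121 against 23.2 and 7.36 (−4.52, SE 0.54). Of 12 tested cancer-testis genes 3 were higher, and 1 without U937 replicate 1, PC3M replicate 2 or either HEK293 library. Among them MAGEB2 had 14.7 and 7.05 FPKM against 0 and 0.00417 (4.41, SE 0.45). All calls of genes named in these paragraphs were kept whichever 1 library was left out.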
